A study of Mus musculus with 16 samples.

Results

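NADPH oxidases and the antioxidant enzymes of the vessel wall were followed in the suprarenal aorta of the mouse, the stretch of abdominal aorta that lies above the kidney arteries. The set comprised 9 genes chosen by symbol from the 29695 genes of the count table. They were the oxidase catalytic subunits Nox4, Nox1 and Cybb, the oxidase partners Cyba and Ncf1, and the antioxidant enzymes Sod3, Gpx3, Hmox1 and Nqo1. Of these, 8 passed the filter on low counts and were tested among 15984 genes, and Nox1 did not pass it.

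The mice were male, and each of the 4 groups held 4 libraries, which the labels call biological replicates. The genotypes compared were Vamp8-/- knockout (KO) and C57BL/6 wild type (WT). KO AngII mice received angiotensin II (AngII), a peptide hormone that narrows vessels and is infused to model aortic disease, at 1000 ng/kg/min for 5 days from a subcutaneous osmotic minipump. KO saline mice received saline from such a pump for 5 days, and WT AngII and WT saline mice received the same infusions. Vamp8 encodes a vesicle fusion protein of endosomes and secretory granules. The labels do not state age, the deleted exon or whether knockout and wild-type mice were littermates. The submitters had left out aortae with haemorrhage or other visible disease, so severe disease is not represented.

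NADPH oxidases pass electrons from NADPH across a membrane to oxygen and so make superoxide or hydrogen peroxide on purpose. Nox4, the main oxidase of smooth muscle, fibroblasts and endothelium, is constitutively active and releases mostly hydrogen peroxide, so its output follows its amount. Cybb is the catalytic core of the phagocyte oxidase and needs cytosolic organisers such as Ncf1 to be switched on. AngII is a classical stimulus of these enzymes in vessels, while Sod3 outside the cell, glutathione peroxidases and enzymes induced by the transcription factor NRF2 remove oxidants or limit the damage.

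Total counts ran from 13284804 to 21643548 per library, and levels are given as CPM, a gene's reads relative to the library's total after scaling by edgeR's trimmed mean of M values (TMM). Vamp8 itself was at 14.1 to 26.7 CPM in KO AngII libraries, 24.9 to 53.3 CPM in KO saline libraries, 52.3 to 60.9 CPM in WT AngII libraries and 45.9 to 57.2 CPM in WT saline libraries. The library labelled KO saline replicate 1 held the 53.3 CPM, within the WT range and against its label, and it also had the highest total and the lowest TMM factor (0.716). KO AngII replicate 4 stood apart through nerve and chromaffin markers (10 in the table, 9 tested), which over all 10 summed to 4050 CPM against at most 271 CPM in any other library. Mitochondrial transcripts took 26.96 to 32.8% of reads in KO saline libraries and 8.33 to 24.3% in all others. The table also differed in structure by genotype: all 2725 genes without a symbol were at 0 reads in every WT library, and 1401 genes were at 0 reads in every KO library. The sources used here do not state whether WT and KO reads were counted in 1 run, and a difference in counting cannot be told apart from genotype in any KO against WT comparison. Smooth muscle, fibroblast and endothelial markers, which define the labelled tissue, were above 0 in all 16 libraries. Nothing in the labels ties samples to litters or days, so p-values measure the spread between these libraries.

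The sequence 250 bases upstream of the annotated start is shown for 3 oxidase genes, a pair whose levels varied together across libraries (Cybb and Ncf1) and Nox4, whose level gave a weak correlation with Cybb. The sequences are RefSeq's, from build GRCm38.p6, on the strand of the gene, 5′ to 3′, in lower case, with a CCAAT box (CCAAT on either strand) in capitals.
Nox4, chr7:87246399-87246648, plus strand: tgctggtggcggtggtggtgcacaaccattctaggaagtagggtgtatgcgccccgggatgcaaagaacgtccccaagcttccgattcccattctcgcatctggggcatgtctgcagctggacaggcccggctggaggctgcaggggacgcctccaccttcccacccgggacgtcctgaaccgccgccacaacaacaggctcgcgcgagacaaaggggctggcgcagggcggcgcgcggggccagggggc
Cybb, chrX:9469325-9469574, minus strand: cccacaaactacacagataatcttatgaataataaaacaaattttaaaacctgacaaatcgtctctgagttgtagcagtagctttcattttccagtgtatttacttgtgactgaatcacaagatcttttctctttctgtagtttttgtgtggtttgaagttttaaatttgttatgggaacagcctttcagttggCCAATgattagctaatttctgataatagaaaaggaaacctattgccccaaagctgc
Ncf1, chr5:134229626-134229875, minus strand: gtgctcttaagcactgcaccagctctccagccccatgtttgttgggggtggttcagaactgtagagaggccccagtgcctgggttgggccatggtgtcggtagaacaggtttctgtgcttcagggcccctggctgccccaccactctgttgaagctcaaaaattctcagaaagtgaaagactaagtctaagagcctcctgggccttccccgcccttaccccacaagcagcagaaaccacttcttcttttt
The Nox4 window had 67.2% G or C and 20 CpG dinucleotides, the Ncf1 window 54.4% and 2, and the Cybb window 34% and 1, beside a median of 52.4% G or C over 32851 promoter windows of this length. The CCAAT box of Cybb began 56 bases before the start, and 33.8% of all windows held one on either strand. The table held 7 of the 9 genes, those named here with Nox1, Cyba, Nqo1 and Gpx3. The antioxidant response element TGACNNNGC, the motif of NRF2, was found on neither strand in these 7 windows, while 10.2% of all windows held it. The TATA box TATAAA was found in the Nqo1 window alone, 29 bases before the start, and in 12.4% of all windows. A match or its lack describes only these letters in these windows.

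Per length of exon, the antioxidant enzymes that are secreted stood far above the oxidases. The median over 16 libraries, in CPM per kb of exon, was 253 for Gpx3, 163 for Sod3, 37.4 for Cyba, 17.0 for Nox4, 8.80 for Nqo1, 6.29 for Hmox1, 1.72 for Ncf1, 1.58 for Cybb and 0 for Nox1. Neighbours in this order overlapped over libraries in most cases: Gpx3 ran from 92.6 to 543 CPM per kb and Sod3 from 81.0 to 309 CPM per kb, and Ncf1 (0.955 to 5.33) and Cybb (0.954 to 4.70) covered the same range. Cyba (27.7 to 52.9) lay below every Sod3 value and overlapped Nox4 (2.93 to 32.5). Nox4 exceeded Cybb per length in every library, by 1.55 to 12.96 times in KO AngII, 6.94 to 8.003 times in KO saline, 4.15 to 11.3 times in WT AngII and 5.75 to 22.8 times in WT saline libraries. The plot of CPM per kb shows this order together with the spread.

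**Figure D1:**
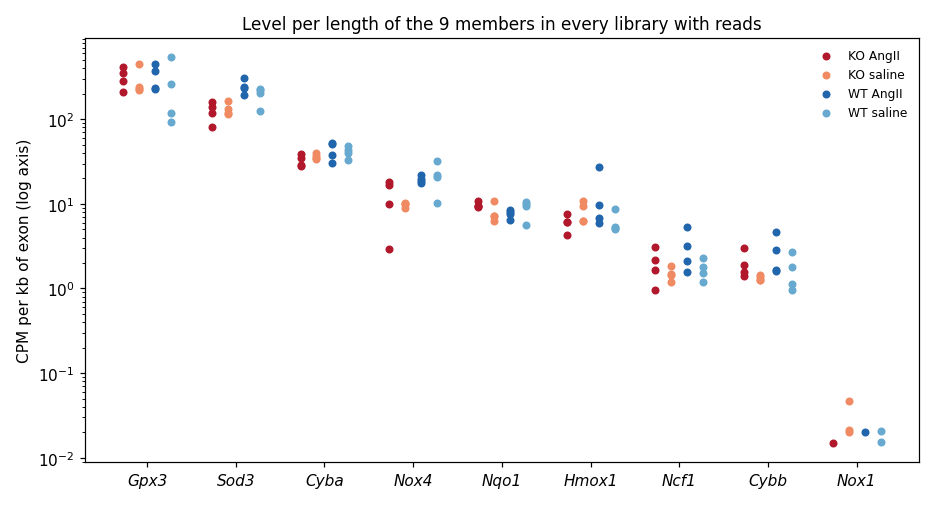
Level of the 9 genes in CPM per kb of exon (log axis), 1 point per library with reads, coloured by group. Gpx3 and Sod3 lie highest, between 81.0 and 543, and Nox1 is drawn only for the 7 libraries in which it had reads.

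No gene of the set changed with AngII or with genotype at an adjusted p under 0.05 in edgeR's quasi-likelihood test, adjusted over 15984 genes. The call rate over all genes was itself low, 0.0501% for AngII against saline in KO, 0.444% for AngII against saline in WT, 2.03% for KO against WT under AngII and 3.01% for KO against WT under saline. It was 0.0188% for the genotype by AngII interaction and 1.04% for the average AngII effect over both genotypes. At an unadjusted p under 0.05 the numbers were 0 of 8 for AngII in KO against 19.2% of all genes, 2 of 8 for AngII in WT against 8.8%, and 3 of 8 for KO against WT under AngII against 17.9%. They were 2 of 8 for KO against WT under saline against 21.8%, 1 of 8 for the interaction against 11.2% and 2 of 8 for the average AngII effect against 15.1%. The median log2 fold change of the 8 genes was 0.22 for AngII in KO, 0.33 for AngII in WT, -0.54 for KO against WT under AngII and -0.19 for KO against WT under saline, beside 0.02, -0.01, 0.04 and 0.05 over all genes. DESeq2 called 1 of the 8 (Sod3, KO against WT under AngII) and limma voom with library quality weights called 3 values (Sod3 in both KO against WT comparisons and Nox4 under saline). These tools also called more genes over the whole table. For KO against WT under AngII DESeq2 called 1276 genes, where edgeR called 324. For KO against WT under saline limma voom called 3197 of 15984 genes, where edgeR called 481. With the library labelled KO saline replicate 1 left out, KO against WT under saline gave -1.18 for Nox4 (SE 0.48), -0.34 for Cybb (SE 0.42), -0.27 for Cyba (SE 0.19), -0.23 for Ncf1 (SE 0.42), -0.73 for Sod3 (SE 0.26), 0.24 for Hmox1 (SE 0.44) and -0.13 for Nqo1 (SE 0.21), with 0 of 8 called. AngII against saline in KO then gave values from -0.29 for Hmox1 (SE 0.44) to 0.55 for Cybb (SE 0.43), with 0 of 8 called. The comparisons of AngII with saline and of KO with WT use the same libraries and are not independent.

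**Figure D2:**
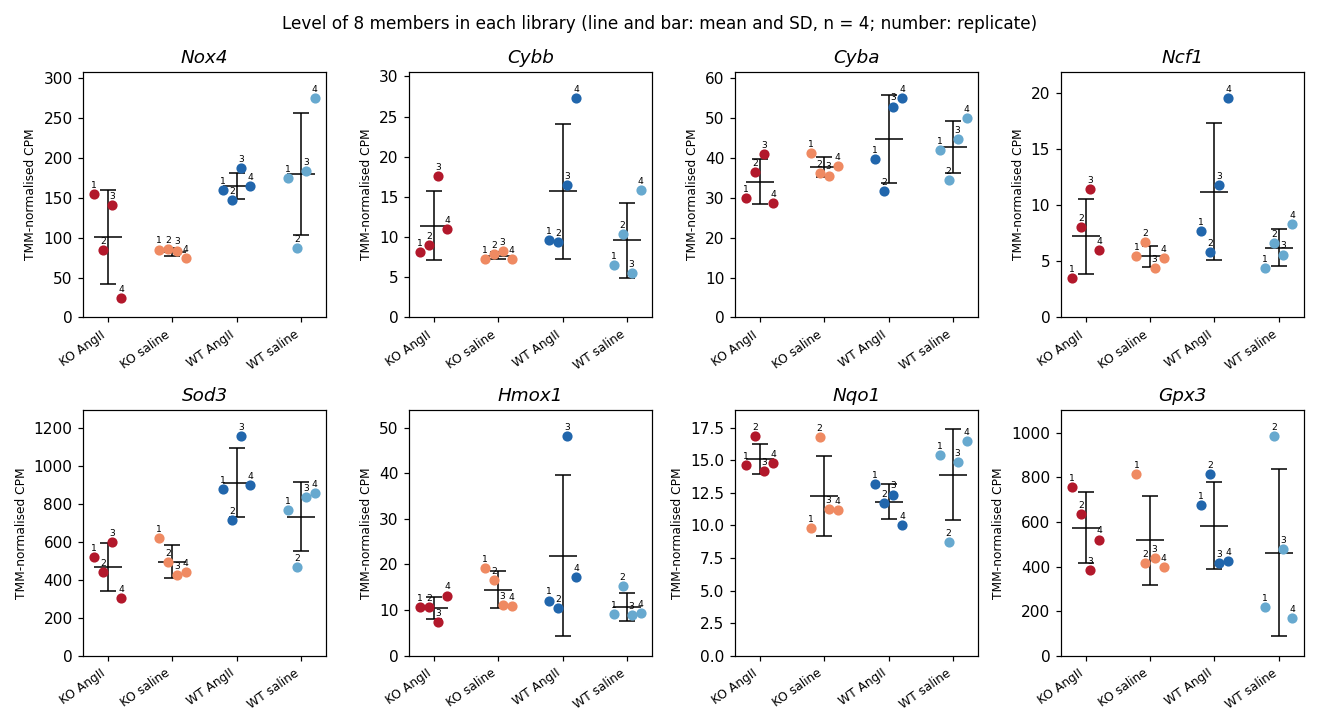
TMM-normalised CPM of the 8 tested genes in each library (points, replicate number above), with the mean and SD of 4 libraries per group. Sod3 in KO AngII libraries (303 to 599) lies below all WT AngII libraries (715 to 1154), while most other groups overlap.

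**Figure D3:**
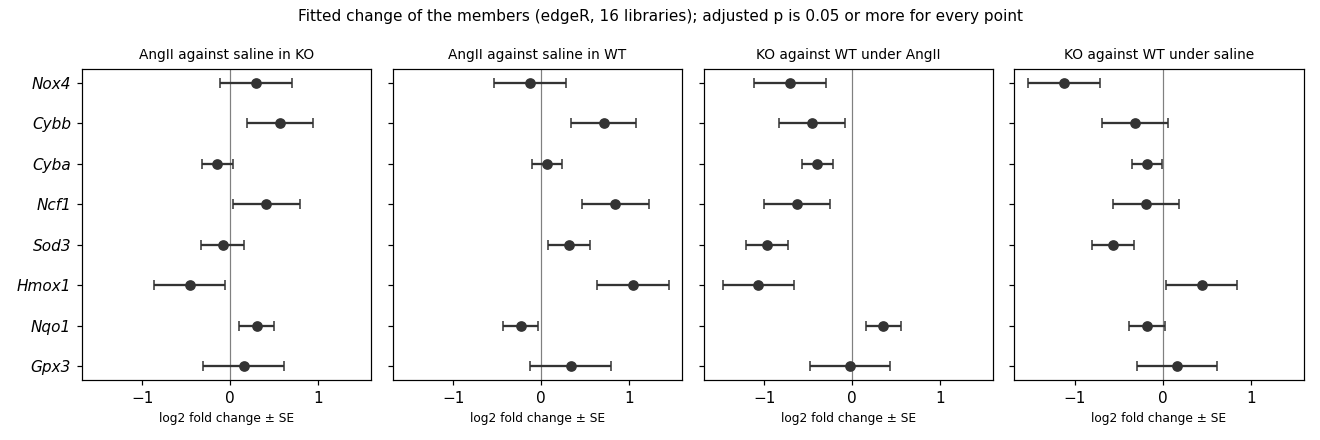
Fitted log2 fold change with its SE for the 8 tested genes in 4 comparisons, first-named group over second. None passed adjustment; the lowest adjusted p was 0.0523, for Sod3 in KO against WT under AngII.

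Nox4 (ENSMUSG00000030562, chromosome 7) was lower in KO than in WT in both infusions, without passing the adjusted threshold, and did not differ by AngII beyond its error. It had 155, 84.6, 141 and 24.8 CPM in KO AngII libraries, 85.2, 86.0, 84.0 and 75.0 CPM in KO saline libraries, 160, 148, 187 and 165 CPM in WT AngII libraries and 174, 87.6, 184 and 275 CPM in WT saline libraries. The 4 KO saline libraries lay close together and all below the 4 WT saline libraries, of which replicate 2 came within 2 CPM of them. Group means were 101 ± 59.2 CPM in KO AngII, 82.5 ± 5.10 CPM in KO saline, 165 ± 16.5 CPM in WT AngII and 180 ± 76.7 CPM in WT saline (SD, n = 4 each). KO against WT under saline gave a log2 fold change of -1.13 (SE 0.41, edgeR adjusted p = 0.141), and ranges without overlap in this direction occurred in 5.94% of all genes. Leaving out WT saline replicate 2 gave -1.36 (edgeR adjusted p = 0.0464), leaving out KO AngII replicate 4, which only enters the estimate of spread here, gave -1.12 (edgeR adjusted p = 0.0286), and leaving out WT saline replicate 4 gave -0.85 (edgeR adjusted p = 0.378). With limma voom the value was -1.17 (adjusted p = 0.00736), and the 8 alternatives ran from 0.00736 to 0.178. Limma voom called 3197 of 15984 genes in this comparison. Under AngII the difference was -0.71 (SE 0.41, edgeR adjusted p = 0.411), with an overlap because KO AngII replicate 1 lay above WT AngII replicate 2. It was -0.40 (edgeR adjusted p = 0.612) without KO AngII replicate 4. AngII against saline gave 0.29 (SE 0.41) in KO and -0.13 (SE 0.41) in WT, with edgeR adjusted p of 0.703 and 1.00.

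Nox4 varied with the markers of several cell types. Smooth muscle markers (8 of 8 measured, none at 0) summed to 5754 to 17028 CPM in KO AngII, 8691 to 11682 CPM in KO saline, 12009 to 17687 CPM in WT AngII and 8009 to 21729 CPM in WT saline libraries. KO AngII replicate 4, lowest in Nox4, was also lowest in these markers (5754 CPM), and WT saline replicate 2, the lowest WT library in Nox4, held 8009 CPM where the other WT saline libraries held 20223 to 21729 CPM. Over 16 libraries, Nox4 and the mean log2 level of these markers gave Pearson r = 0.78 (permutation p = 0.00013, adjusted 0.00347) and Spearman rho = 0.71 (permutation p = 0.00314, adjusted 0.0390). The r was 0.81 within groups and 0.68 without the 2 libraries farthest from the median marker level, KO AngII replicate 4 and WT saline replicate 1. In KO against WT under saline, 7 of the 8 markers were lower at an unadjusted p under 0.05 and 0 passed adjustment, with a median log2 fold change of -0.93. In KO against WT under AngII, where Nox4 gave -0.71, 0 of the 8 were lower at an unadjusted p under 0.05, 3 were positive and the median was -0.09. Nox4 also ran against endothelial markers (r = -0.65, permutation p = 0.00507, adjusted 0.0239; rho = -0.75, permutation p = 0.00125, adjusted 0.0232; -0.51 within groups; -0.63 without KO saline replicates 2 and 4) and general adipocyte markers (r = -0.63, permutation p = 0.00716, adjusted 0.0295; rho = -0.69, permutation p = 0.00393, adjusted 0.0393; -0.36 within groups; -0.63 without WT AngII replicate 3 and WT saline replicate 1). The part of these markers in the Nox4 difference was not tested, and in tissue RNA fewer cells of a type and less RNA per cell cannot be told apart.

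Nox1 (ENSMUSG00000031257, chromosome X), the inducible oxidase of smooth muscle and colon, was barely sequenced. It had 8 reads in all, of 256466453 assigned reads in the 16 libraries: 1 in KO AngII, 4 in KO saline, 1 in WT AngII and 2 in WT saline libraries. No library held more than 2 reads, and 9 held 0. Nox1 shared 12.1% of its exon bases with the gene Cstf2 on the other strand in the GRCm38 annotation. With no strand setting given in the sources used here, even these few reads may belong in part to Cstf2. A count of 0 allows up to 0.148 to 0.230 CPM, depending on the library, which covers counting error only, so no difference in Nox1 was detectable at this depth. Its organiser Noxo1 had 0.514 to 1.82 CPM in KO AngII, 0.387 to 1.195 CPM in KO saline, 0.595 to 1.24 CPM in WT AngII and 0.652 to 1.08 CPM in WT saline libraries, so the groups overlapped.

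Cybb (ENSMUSG00000015340, chromosome X) and Ncf1 (ENSMUSG00000015950, chromosome 5), core and organiser of the phagocyte oxidase, had higher means under AngII than under saline in both genotypes, with no call. Cybb had 8.18, 9.05, 17.6 and 10.96 CPM in KO AngII, 7.30, 7.91, 8.29 and 7.32 CPM in KO saline, 9.68, 9.36, 16.5 and 27.3 CPM in WT AngII and 6.58, 10.4, 5.54 and 15.8 CPM in WT saline libraries. Ncf1 had 3.50, 8.01, 11.4 and 5.99 CPM in KO AngII, 5.43, 6.68, 4.43 and 5.26 CPM in KO saline, 7.69, 5.81, 11.8 and 19.5 CPM in WT AngII and 4.41, 6.59, 5.60 and 8.30 CPM in WT saline libraries. For both genes the highest library was WT AngII replicate 4, the AngII groups spread more widely than KO saline, and all ranges overlapped. The average AngII effect was 0.64 for Cybb (SE 0.26, edgeR adjusted p = 0.270) and 0.63 for Ncf1 (SE 0.27, edgeR adjusted p = 0.284) on the log2 scale. Without WT AngII replicate 4 these were 0.44 and 0.42. Within KO, AngII gave 0.57 for Cybb (SE 0.38) and 0.41 for Ncf1 (SE 0.38). Within WT, it gave 0.71 for Cybb (SE 0.37) and 0.85 for Ncf1 (SE 0.38), which became 0.30 and 0.44 without that library. KO against WT under AngII gave -0.46 (SE 0.37) for Cybb and -0.63 (SE 0.38) for Ncf1, and without WT AngII replicate 4 -0.05 and -0.22. Ncf1 shared 11.1% of its exon bases with the gene Gtf2ird2 on the other strand in the GRCm38 annotation, and with no strand setting given in the sources used here, part of its reads may belong to that gene.

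Both genes followed the macrophage markers (12 of 12 measured, none at 0). These summed to 346 to 524 CPM in KO AngII, 375 to 452 CPM in KO saline, 454 to 1224 CPM in WT AngII and 381 to 714 CPM in WT saline libraries, with the highest value again in WT AngII replicate 4. Cybb and the mean log2 level of these markers gave r = 0.85 (permutation p = 0.0001, adjusted 0.00347) and rho = 0.80 (permutation p = 0.0004, adjusted 0.0160). For Ncf1 the values were r = 0.85 (permutation p = 0.0001, adjusted 0.00347) and rho = 0.75 (permutation p = 0.00124, adjusted 0.0232). Without the 2 libraries richest in these markers, WT AngII replicates 3 and 4, r was 0.68 for Cybb and 0.62 for Ncf1, and within groups it was 0.91 and 0.83. Other lists varied with both genes too. With monocyte and neutrophil markers r was 0.72 for Cybb and 0.64 for Ncf1 (permutation p, adjusted 0.0158 and 0.0295). With fibroblast markers r was 0.71 and 0.78 (permutation p, adjusted 0.0158 and 0.00893), and 0.33 and 0.45 without WT AngII replicates 3 and 4. The rho of these further relations did not pass adjustment. Cybb minus the mean macrophage marker level, on the log2 scale, was -0.92 ± 0.27 in KO AngII, -1.39 ± 0.13 in KO saline, -1.34 ± 0.23 in WT AngII and -1.43 ± 0.32 in WT saline (SD, n = 4 each). AngII against saline differed by 0.47 in KO (exact permutation p = 0.0286, the smallest that 4 against 4 allows, adjusted 0.114 over 4 comparisons) and by 0.09 in WT (exact permutation p = 0.686, adjusted 0.829). KO against WT differed by 0.41 under AngII (exact permutation p = 0.0857, adjusted 0.171) and by 0.04 under saline (exact permutation p = 0.829, adjusted 0.829). So relative to these markers Cybb was highest in KO AngII libraries, although its CPM was not. None of the 4 differences passed adjustment, and with these group sizes a single difference at the smallest possible p could not have passed it. Another phagocyte subunit, Ncf4 (p40phox), was also low and had 1.60 to 3.88 CPM in KO AngII, 1.23 to 2.32 CPM in KO saline, 2.41 to 6.25 CPM in WT AngII and 1.02 to 3.72 CPM in WT saline libraries.

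Cyba (ENSMUSG00000006519, chromosome 8) encodes p22phox, the membrane partner that stabilises Nox4, Nox1 and Cybb. It varied least of the oxidase genes and did not differ between groups beyond its error after adjustment. It had 30.0, 36.5, 41.0 and 28.8 CPM in KO AngII, 41.2, 36.1, 35.6 and 38.0 CPM in KO saline, 39.8, 31.7, 52.9 and 55.0 CPM in WT AngII and 41.9, 34.4, 44.8 and 50.03 CPM in WT saline libraries. Means were 34.1 ± 5.72, 37.7 ± 2.55, 44.8 ± 11.01 and 42.8 ± 6.50 CPM in KO AngII, KO saline, WT AngII and WT saline (SD, n = 4 each). KO against WT gave -0.40 under AngII (SE 0.17, edgeR adjusted p = 0.240) and -0.18 under saline (SE 0.17, edgeR adjusted p = 0.541). AngII against saline gave -0.15 in KO (SE 0.17) and 0.07 in WT (SE 0.17). Across libraries Cyba varied with Sod3 (r = 0.79, permutation p = 0.00031, rho = 0.77, permutation p = 0.00073, adjusted 0.00289 and 0.00681 over 28 gene pairs) and gave r = 0.70 without WT AngII replicates 3 and 4. With Nox4 it gave r = 0.64 (permutation p = 0.00598, adjusted 0.0335) and rho = 0.67 (permutation p = 0.00574, adjusted 0.0402). That r was 0.54 without KO AngII replicate 4 and KO saline replicate 4. With Ncf1 it gave r = 0.67 (permutation p = 0.00395, adjusted 0.0276) and rho = 0.47 (permutation p = 0.0674, adjusted 0.299). That r was 0.38 without WT AngII replicates 3 and 4.

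Sod3 (ENSMUSG00000072941, chromosome 5), the extracellular superoxide dismutase that smooth muscle and fibroblasts secrete into the vessel matrix, showed the clearest separation by genotype. It had 519, 440, 599 and 303 CPM in KO AngII, 620, 490, 427 and 441 CPM in KO saline, 876, 715, 1154 and 898 CPM in WT AngII and 768, 465, 837 and 857 CPM in WT saline libraries. All KO AngII libraries were below all WT AngII libraries, a separation in this direction seen in 4.8% of all genes. Under saline, only WT saline replicate 2 lay within the KO range. Means were 465 ± 126 CPM in KO AngII, 494 ± 87.8 CPM in KO saline, 911 ± 181 CPM in WT AngII and 732 ± 182 CPM in WT saline (SD, n = 4 each). KO against WT under AngII gave a log2 fold change of -0.97 (SE 0.24, edgeR adjusted p = 0.0523), which just missed the threshold. DESeq2 gave -0.97 (adjusted p = 0.00370) and limma voom with quality weights -0.87 (adjusted p = 0.0129), and over 8 alternatives on the libraries as a whole the adjusted p ran from 0.00370 to 0.153. With 1 library left out, edgeR's value lay between -1.13 and -0.83, and the adjusted p was under 0.05 in 4 of 16 such fits, those without WT saline replicate 2 (edgeR adjusted p = 0.0322), WT AngII replicate 2 (0.0416), KO saline replicate 1 (0.0473) or KO AngII replicate 3 (0.0284). The highest adjusted p, 0.179, came without WT AngII replicate 3. KO against WT under saline gave -0.57 (SE 0.24, edgeR adjusted p = 0.195), and limma voom -0.75 (adjusted p = 0.00625, where the 8 alternatives ran from 0.00625 to 0.272). Over all 15984 genes limma voom called 3197 under saline, and DESeq2 called 1276 genes under AngII. The interaction was -0.40 (SE 0.34, edgeR adjusted p = 0.629), so the genotype difference was not shown to vary with infusion. AngII against saline gave -0.09 in KO (SE 0.24) and 0.32 in WT (SE 0.24).

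Sod3 also moved with the cell type markers. Fibroblast markers (8 of 8 measured, none at 0) summed to 4299 to 8362 CPM in KO AngII, 3811 to 6313 CPM in KO saline, 11422 to 32909 CPM in WT AngII and 7486 to 13740 CPM in WT saline libraries, so they separated KO AngII from WT AngII as Sod3 did. Endothelial markers (8 of 8 measured, none at 0) summed to 801 to 1980, 934 to 2139, 652 to 1292 and 982 to 1256 CPM in KO AngII, KO saline, WT AngII and WT saline libraries. Sod3 gave r = 0.69 with fibroblast markers (permutation p = 0.00278, adjusted 0.0158; rho = 0.70, permutation p = 0.00341, adjusted 0.0390; 0.25 within groups; 0.58 without WT AngII replicates 3 and 4). With endothelial markers it gave r = -0.78 (permutation p = 0.00038, adjusted 0.0072; rho = -0.81, permutation p = 0.0003, adjusted 0.0160; -0.74 within groups; -0.79 without KO saline replicates 2 and 4). With smooth muscle markers it gave r = 0.62 (permutation p = 0.0109, adjusted 0.0390; rho = 0.52, permutation p = 0.0411, adjusted 0.127; 0.76 within groups), and without KO AngII replicate 4 and WT saline replicate 1 the pooled r was 0.47. General adipocyte markers (8 of 8 measured, none at 0) summed to 3321 to 5605 CPM in KO AngII, 3873 to 6803 CPM in KO saline, 1772 to 4958 CPM in WT AngII and 1666 to 5891 CPM in WT saline libraries. All 8 had a positive log2 fold change in KO against WT under AngII, 1 of them called, with a median of 0.57. Sod3 ran against them (r = -0.76, permutation p = 0.00045, adjusted 0.0072; rho = -0.74, permutation p = 0.00145, adjusted 0.0232; -0.52 within groups; -0.71 without WT AngII replicate 3 and WT saline replicate 1). Sod3 and Nox4 varied together (r = 0.87, permutation p = 2e-05, adjusted 0.00042; rho = 0.89, permutation p = 4e-05, adjusted 0.00112; 0.83 within groups; 0.81 without KO AngII replicate 4 and KO saline replicate 4). Cybb and Ncf1 did so to a like degree (r = 0.87, permutation p = 3e-05, adjusted 0.00042; rho = 0.80, permutation p = 0.00038, adjusted 0.00532; 0.83 within groups; 0.71 without WT AngII replicate 4 and KO AngII replicate 3), while Nox4 and Cybb gave r = 0.23 (permutation p = 0.384, adjusted 0.565) and rho = 0.18 (permutation p = 0.514, adjusted 0.697). The part of cell type content in the Sod3 difference was not tested.

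**Figure D4:**
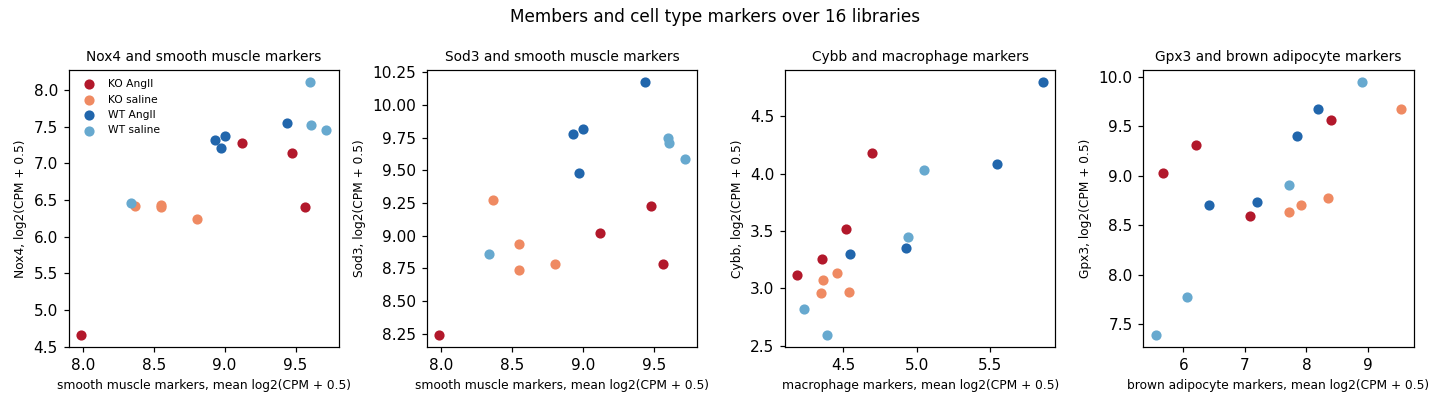
Log2(CPM + 0.5) of Nox4, Sod3, Cybb and Gpx3 against the mean log2(CPM + 0.5) of a marker list, 1 point per library, coloured by group. Nox4 follows smooth muscle markers (r = 0.78), Cybb macrophage markers (r = 0.85) and Gpx3 brown adipocyte markers (r = 0.69); KO AngII replicate 4 is the lowest point for Nox4 and Sod3.

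Gpx3 (ENSMUSG00000018339, chromosome 11), the glutathione peroxidase secreted into plasma, had the highest median level per kb of exon in the set, and all its groups overlapped. It had 757, 635, 386 and 521 CPM in KO AngII, 814, 417, 439 and 398 CPM in KO saline, 676, 816, 417 and 425 CPM in WT AngII and 218, 984, 480 and 168 CPM in WT saline libraries. Its spread was widest in WT saline, where the lowest and the highest of all 16 libraries were found. KO against WT gave -0.02 under AngII and 0.16 under saline, and AngII against saline gave 0.15 in KO and 0.34 in WT, each with an SE of 0.46. Intervals of 95% around these values (12 residual degrees of freedom) reached from -1.02 to 0.98 under AngII and from -0.84 to 1.16 under saline, so a 2-fold difference between genotypes lay at their edge. Without KO saline replicate 1 the value under saline was -0.18, and without WT saline replicate 2 it was 0.84, neither passing adjustment. Brown adipocyte markers (6 of 6 measured, none at 0) summed to 616 to 3601 CPM in KO AngII, 1889 to 8699 CPM in KO saline, 1021 to 3313 CPM in WT AngII and 481 to 5298 CPM in WT saline libraries. The highest library of each group in these markers was also the highest in Gpx3. Gpx3 gave r = 0.69 with them (permutation p = 0.00297, adjusted 0.0158), rho = 0.68 (permutation p = 0.00505, adjusted 0.0449), 0.85 within groups and 0.68 without WT saline replicate 4 and KO AngII replicate 4. General adipocyte markers shared this, with r = 0.66 (permutation p = 0.00541, adjusted 0.0240) and rho = 0.44 (permutation p = 0.0925, adjusted 0.224). Their r was 0.85 within groups and 0.62 without WT AngII replicate 3 and WT saline replicate 1.

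Hmox1 (ENSMUSG00000005413, chromosome 8), haem oxygenase 1, breaks down haem and is induced by haem and oxidative stress. Its mean was highest in WT AngII, and that mean rested on 1 library. It had 10.6, 10.7, 7.44 and 13.2 CPM in KO AngII, 19.1, 16.7, 11.1 and 10.9 CPM in KO saline, 12.1, 10.5, 48.0 and 17.2 CPM in WT AngII and 9.15, 15.3, 8.85 and 9.32 CPM in WT saline libraries. WT AngII replicate 3 stood at 48.0 CPM, and all groups overlapped. AngII against saline gave -0.46 in KO (SE 0.40, edgeR adjusted p = 0.531). In WT it gave 1.04 (SE 0.41, edgeR adjusted p = 0.427), and 0.32 (SE 0.28) without that library. The interaction was -1.51 (SE 0.57, edgeR adjusted p = 0.419), and -0.78 (SE 0.38, edgeR adjusted p = 0.539) without WT AngII replicate 3. KO against WT gave -1.07 under AngII (SE 0.41, edgeR adjusted p = 0.168), which became -0.34 without that library, and 0.44 under saline (SE 0.40, edgeR adjusted p = 0.525). Monocyte and neutrophil markers (12 in the table, up to 4 of them at 0 in a library, 7 tested) summed over all 12 to 59.3 CPM in that library and 71.3 CPM in WT AngII replicate 4, against 6.03 to 40.1 CPM in all others. Hmox1 gave r = 0.70 with the mean level of the 7 (permutation p = 0.00222, adjusted 0.0158) and rho = 0.59 (permutation p = 0.0191, adjusted 0.0808), and r was 0.44 with WT AngII replicate 3 and WT saline replicate 1 left out, so the relation rests on these. Haemoglobin and other erythroid markers (5 of 5 measured) were highest in KO AngII replicate 3 at 19426 CPM, the library with the lowest Hmox1. Over 16 libraries Hmox1 and their mean level gave no clear relation. The r was -0.11 (permutation p = 0.664, adjusted 0.807) and rho -0.05 (permutation p = 0.859, adjusted 0.929). Without KO AngII replicate 3 and WT AngII replicate 4, r was 0.25.

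Nqo1 (ENSMUSG00000003849, chromosome 8), a quinone reductase and classical NRF2 target, was slightly higher in KO AngII than in WT AngII, with no call. It had 14.6, 16.8, 14.2 and 14.8 CPM in KO AngII, 9.82, 16.7, 11.2 and 11.2 CPM in KO saline, 13.2, 11.7, 12.4 and 10.1 CPM in WT AngII and 15.4, 8.74, 14.9 and 16.5 CPM in WT saline libraries. All KO AngII libraries lay above all WT AngII libraries, a separation in this direction seen in 4.54% of all genes. KO against WT gave 0.35 under AngII (SE 0.20, edgeR adjusted p = 0.395) and -0.18 under saline (SE 0.20, edgeR adjusted p = 0.601), and the interaction was 0.53 (SE 0.28, edgeR adjusted p = 0.472). AngII against saline gave 0.30 in KO (SE 0.20) and -0.23 in WT (SE 0.20). Brown adipocyte markers ran against it (r = -0.63, permutation p = 0.0089, adjusted 0.0339; rho = -0.61, permutation p = 0.0146, adjusted 0.0808; -0.57 without WT saline replicate 4 and KO AngII replicate 4). Across libraries Nqo1 and Hmox1 gave r = -0.36 (permutation p = 0.179, adjusted 0.417) and rho = -0.46 (permutation p = 0.0748, adjusted 0.299).

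Genes with a pattern like each member were taken as the 3 with the highest Pearson correlation of log2 CPM over 16 libraries among 13889 protein-coding genes, as a description. For Nox4 they were Tbx18 (0.98), a transcription factor of pericytes and vascular smooth muscle, Pdgfd (0.97), a platelet-derived growth factor, and Lypd8l (0.97). For Sod3 they were Hacd1 (0.96), Cav3 (0.94), a caveolin of muscle cells, and Ggcx (0.94), the vitamin K dependent carboxylase. For Cybb they were Pilra (0.94), a myeloid receptor, Pik3ap1 (0.92) and Lcp1 (0.91), a leukocyte actin-bundling protein. For Ncf1 they were Sh3bp2 (0.90), Ptgs2 (0.90), cyclooxygenase 2, and Cd44 (0.89). For Gpx3 they were Pparg (0.93), the master regulator of adipocytes, Ormdl3 (0.91) and Car13 (0.91). For Cyba they were Rhoc, Efemp2 and Cd63 (0.86 to 0.88), for Hmox1 Mdp1, Lcn2 and Tyms (0.83 to 0.87) and for Nqo1 Rtf1, Rab27a and Vwa3b (0.81 to 0.92). Some of these values share the library in which cell content stood apart, KO AngII replicate 4.

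Around the 9 genes, 95 further genes of oxidant production and defence were read in 7 lists, of which 90 were tested. Between genotypes 4 of the 90 changed under AngII (3 higher and 1 lower, 4.44%) and 4 under saline (2 higher and 2 lower, 4.44%). Over all genes the shares were 2.03% under AngII (0.995% higher, 1.03% lower) and 3.01% under saline (1.23% higher, 1.78% lower). By edgeR none of the 90 changed with AngII in KO (14 at an unadjusted p under 0.05, where 19.2% of all genes were; DESeq2 called 4 and limma voom 1) or in WT (7, against 8.8%; 3 and 2). None was called for the interaction (14, against 11.2%; 0 and 1) or the average AngII effect (14, against 15.1%; 2 and 2). For KO against WT, 21 of the 90 were at an unadjusted p under 0.05 under AngII, against 17.9% of all genes, and 32 under saline, against 21.8%. The lists and their members were chosen with earlier results of these data known.

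Gpx7, a glutathione peroxidase of the endoplasmic reticulum, was lower in KO AngII than in WT AngII libraries, with 17.4, 32.6, 23.8 and 32.2 CPM in KO AngII and 46.7, 45.6, 84.3 and 95.5 CPM in WT AngII libraries. Under saline it had 19.0 to 25.1 CPM in KO and 25.8 to 40.7 CPM in WT libraries. For KO against WT under AngII the log2 fold change was -1.36 (SE 0.26, edgeR adjusted p = 0.0128). The 2 AngII groups did not overlap, a separation in this direction seen in 4.8% of all genes. The edgeR adjusted p was 0.0579 without WT AngII replicate 3 and 0.0553 without WT AngII replicate 4, the 2 libraries richest in fibroblast markers. AngII against saline gave 0.27 for Gpx7 in KO (SE 0.25, edgeR adjusted p = 0.566) and 1.05 in WT (SE 0.25, edgeR adjusted p = 0.105). It was the sole called gene of the list of superoxide dismutases, catalase and peroxidases (18 of 19 tested, members included, median -0.05 beside 0.04 over all genes). Its relative Gpx8 had 76.4 to 98.8 CPM in KO AngII, 66.0 to 121 CPM in KO saline, 101 to 169 CPM in WT AngII and 69.0 to 91.6 CPM in WT saline libraries, with 0.74 for AngII in WT (SE 0.20, edgeR adjusted p = 0.167).

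Under AngII, 3 genes were higher in KO than in WT. Txnrd3, a thioredoxin and glutathione reductase, had 27.3, 24.9, 24.5 and 18.1 CPM in KO AngII and 16.1, 15.97, 13.6 and 13.5 CPM in WT AngII libraries (log2 fold change 0.68, SE 0.14, edgeR adjusted p = 0.0257). The groups did not overlap, a separation in this direction seen in 4.54% of all genes. The edgeR adjusted p was 0.065 once KO AngII replicate 2 was left out, 0.109 for WT AngII replicate 3 and 0.104 for WT AngII replicate 4. Xdh, xanthine dehydrogenase, which can itself make superoxide in its oxidase form, had 97.4, 122, 72.5 and 79.3 CPM in KO AngII and 52.3, 54.9, 50.9 and 45.6 CPM in WT AngII libraries (0.86, SE 0.20, edgeR adjusted p = 0.0384). It passed in 5 of 16 fits that left out 1 library, those without WT saline replicates 1 or 2, KO saline replicate 1 or KO AngII replicates 1 or 3, and the adjusted p reached 0.143 without WT AngII replicate 4. Gclc, the catalytic subunit of glutathione synthesis, had 33.2, 31.1, 33.3 and 52.6 CPM in KO AngII and 22.7, 22.9, 24.9 and 25.3 CPM in WT AngII libraries (0.65, SE 0.16, edgeR adjusted p = 0.0495). Its highest value lay in KO AngII replicate 4, without which the log2 fold change was 0.42 (edgeR adjusted p = 0.0942), and it passed in 2 of 16 such fits, without KO AngII replicates 1 or 3. Gclc was called in 4 of 8 other alternatives and not with no filter (edgeR adjusted p = 0.0658), the replicate block (0.0786) or without both libraries that stand apart (0.0737). Txnrd3 lost its call with the replicate block (edgeR adjusted p = 0.0520). In the thioredoxin and glutathione list 17 of 20 genes were positive in KO against WT under AngII, with a median of 0.26, and 17 of 20 under saline, with a median of 0.36. Of all genes, 54.9% were positive under AngII and 54.4% under saline, with medians of 0.04 and 0.05. Under AngII, general adipocyte markers (8 of 8 positive, median 0.57), endothelial markers (8 of 8, median 0.50), nerve and chromaffin markers (9 of 9 tested, median 8.54) and erythroid markers (5 of 5, median 1.31) moved in the same direction. The nerve and chromaffin markers summed to 4050 CPM in KO AngII replicate 4 and to 45.1, 271 and 61.1 CPM in replicates 1, 2 and 3. Macrophage (0 of 12 positive, median -0.90), fibroblast (0 of 8, median -0.93) and monocyte and neutrophil markers (1 of 7, median -0.62) moved the other way. The part of these lists was not tested.

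Under saline the called genes served haem, iron, export and oxidase scaffolding. Ftl1, the ferritin light chain, had 371, 399, 332 and 257 CPM in KO saline and 137, 232, 184 and 149 CPM in WT saline libraries (0.95, SE 0.19, edgeR adjusted p = 0.0192). It has processed copies in the genome, among them Ftl1-ps1 with 685 reads in KO saline against 317 in WT saline, and the sources used here do not state how reads matching several places were handled, which leaves its level uncertain. Blvrb, biliverdin reductase B, had 45.5, 43.9, 43.0 and 42.0 CPM in KO saline and 31.3, 36.5, 32.3 and 30.6 CPM in WT saline libraries (0.42, SE 0.11, edgeR adjusted p = 0.0487), and it passed in 2 of 16 fits without 1 library, those that dropped KO AngII replicate 4 or WT saline replicate 2. Blvrb was called in 3 of 8 other alternatives and not with RLE scaling (edgeR adjusted p = 0.0526), no filter (0.166), the replicate block (0.0745) or without both libraries that stand apart (0.0637). Sh3pxd2a, the scaffold Tks5 related to the oxidase organisers, fell to 241, 345, 413 and 312 CPM in KO saline against 571, 614, 565 and 491 CPM in WT saline libraries (-0.77, SE 0.16, edgeR adjusted p = 0.0227). Abcc1, an exporter of glutathione conjugates, had 44.2, 54.2, 62.3 and 55.0 CPM in KO saline and 102, 65.1, 99.7 and 122 CPM in WT saline libraries (-0.85, SE 0.19, edgeR adjusted p = 0.0318). For none of these 4 genes did KO saline and WT saline overlap, which held for 5.17% of all genes in the higher and 5.94% in the lower direction. Ftl1 passed in 11, Sh3pxd2a in 12 and Abcc1 in 9 of 16 fits without 1 library, with adjusted p up to 0.0804, 0.0804 and 0.115. The adjusted p of Ftl1 exceeded 0.05 without KO saline replicates 1 or 2 or WT saline replicates 1, 3 or 4, and that of Sh3pxd2a without KO saline replicates 2 or 4 or WT saline replicates 1 or 3. That of Abcc1 did so without any 1 of the KO saline libraries or WT saline replicates 1, 3 or 4. With only the compared groups in the fit, all 8 genes called between genotypes lost their call. In the list of superoxide dismutases, catalase and peroxidases 14 of 18 genes were positive under saline with a median of 0.51 beside 0.05 over all genes, 0 of them called. Mitochondrial transcripts, which took 26.96 to 32.8% of reads in KO saline and 8.33 to 17.7% in WT saline libraries, moved with this difference. So did brown adipocyte markers (5 of 6 positive, median 1.01), general adipocyte markers (7 of 8, median 0.70), endothelial markers (8 of 8, median 0.49) and skeletal muscle markers (7 of 7 tested positive, median 3.87). Nerve and chromaffin (8 of 9, median 2.50), monocyte and neutrophil (6 of 7, median 0.99) and erythroid markers (5 of 5, median 0.74) also did. Smooth muscle (0 of 8 positive, median -0.93), fibroblast (2 of 8, median -0.44) and macrophage markers (2 of 12, median -0.26) moved the other way. The skeletal muscle markers summed to 598 CPM in KO saline replicate 3, against 6.1, 7.2 and 24.6 CPM in replicates 1, 2 and 4. In WT saline libraries they summed to 5.19 to 11.2 CPM. The part of mitochondrial transcripts and of these marker lists was not tested.

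**Figure D5:**
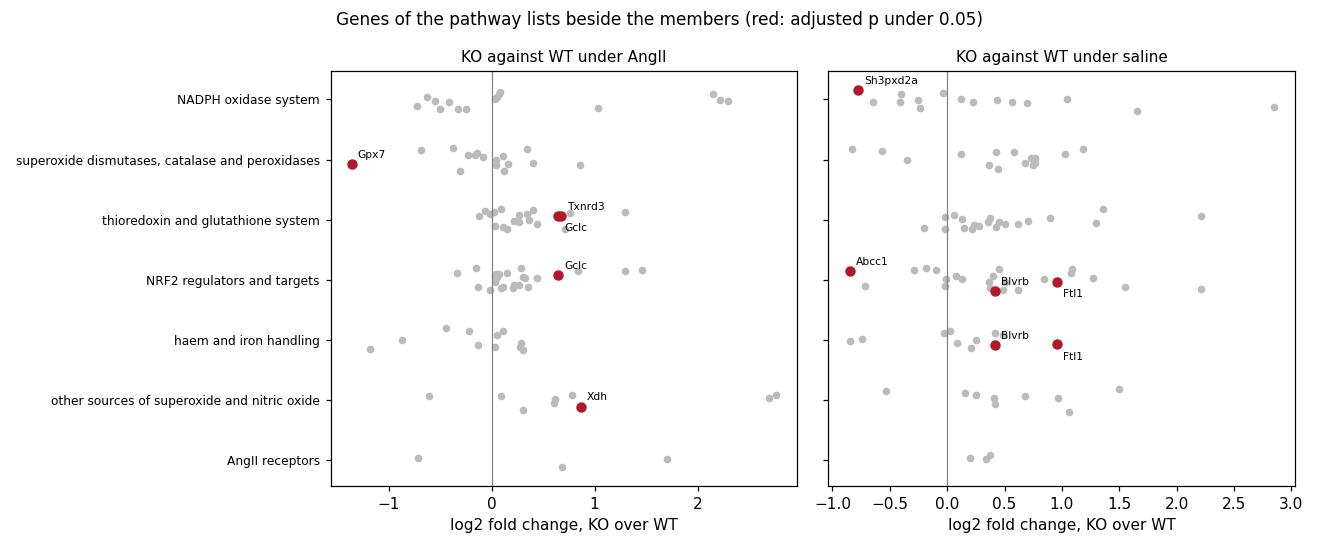
Log2 fold change of KO over WT under AngII (left) and under saline (right) for the tested genes of 7 lists, 1 point per gene and list, the 9 members left out. Red points passed edgeR's adjusted p under 0.05: Gpx7, Txnrd3, Gclc and Xdh under AngII, and Sh3pxd2a, Abcc1, Ftl1 and Blvrb under saline; a gene in 2 lists is drawn in both.

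Where a list had no call in a comparison, the genes with the smallest p are given as log2 fold changes, beside the members already described. For AngII in KO they were -1.06 for Gpx1, the cytosolic glutathione peroxidase (SE 0.30, edgeR adjusted p = 0.135), 1.57 for the copper pump Atp7a (SE 0.46), -0.82 for Osgin1 (SE 0.22), 0.28 for the disulfide isomerase Pdia4 (SE 0.18), -0.61 for Ftl1 (SE 0.19), -0.53 for the ferritin heavy chain Fth1 (SE 0.22), 0.41 for Gclc (SE 0.16) and -0.78 for mitochondrial thioredoxin Txn2 (SE 0.34). Maoa, a mitochondrial amine oxidase that makes hydrogen peroxide, gave 2.48 (SE 0.76), Gch1, which makes the cofactor of nitric oxide synthases, 2.07 (SE 0.84), and the AngII receptors Agtr1a and Agtr1b 1.57 (SE 0.64) and -0.83 (SE 0.46). The highest library for Maoa and Agtr1a was KO AngII replicate 4, where Maoa had 488 CPM against 23.9 to 53.1 CPM in the other KO AngII libraries and Agtr1a 49.6 CPM against 3.61 to 7.52 CPM. Gch1 ran from 2.87 to 108 CPM in KO AngII (mean 31.0) and from 6.26 to 8.64 CPM in KO saline libraries. Atp7a ran from 7.84 to 37.4 CPM in KO AngII (mean 16.9) and from 1.87 to 7.32 CPM in KO saline libraries. For AngII in WT they were -1.89 for Duox1, a thyroid-type oxidase (SE 0.81), -0.87 for Gstm1, a glutathione transferase (SE 0.24, edgeR adjusted p = 0.176), -1.11 for Aldh3a1 (SE 0.48), 0.29 for the haem exporter Flvcr1 (SE 0.15), -0.47 for Txnrd3 (SE 0.14), -0.49 for Nos3, endothelial nitric oxide synthase (SE 0.25), 0.37 for the disulfide isomerase P4hb (SE 0.20), 1.51 for Agtr2 (SE 1.39) and 0.23 for Agtr1b (SE 0.46). Duox1 and Agtr2 were scarce. Duox1 had 0.134 to 0.654 CPM in WT AngII and 0.610 to 2.51 CPM in WT saline libraries. Agtr2 had 0 to 1.43 CPM in WT AngII and 0 to 0.563 CPM in WT saline libraries. For KO against WT under AngII, Pdia4 gave -0.62 (SE 0.18, edgeR adjusted p = 0.0703), the scaffold Sh3pxd2a -0.55 (SE 0.16, edgeR adjusted p = 0.0822), the iron exporter Slc40a1 -1.18 (SE 0.41) the haemoglobin scavenger receptor Cd163 -0.87 (SE 0.32), Agtr1a 1.70 (SE 0.65) and Agtr1b -0.72 (SE 0.46). Under saline, Gpx1 gave 1.02 (SE 0.30, edgeR adjusted p = 0.0735), the copper chaperone Atox1 0.73 (SE 0.24), Srxn1 0.50 (SE 0.18), Gclm 0.45 (SE 0.16) Nos2, inducible nitric oxide synthase, 1.06 (SE 0.37), P4hb -0.53 (SE 0.20), Agtr1a 0.37 (SE 0.64) and Agtr1b 0.33 (SE 0.46). None of these values passed adjustment in edgeR, and the adjusted p ran from 0.128 to 0.377 for AngII in KO and from 0.105 to 0.995 for AngII in WT. For the interaction the lowest adjusted p was 0.361, shared by Ftl1 (-0.92, SE 0.27), Gpx1 (-1.40, SE 0.42) and Txnrd3 (0.69, SE 0.20). For the average AngII effect the lowest was 0.0853 for Gstm1 (-0.66, SE 0.17), followed by Gpx7 (0.66, SE 0.18, edgeR adjusted p = 0.102) and Osgin1 (-0.50, SE 0.16, edgeR adjusted p = 0.157).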

How the data were processed

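RNA of 16 suprarenal aortae was sequenced as poly-A enriched paired-end libraries. The authors deposited a table of raw counts, whole reads assigned to each gene with a column for each library. HISAT2 2.0.5 and the counter featureCounts 1.5.0-p3 are named per the submitters' processing notes, beside DESeq2 1.20.0 and build GRCm39 (mm39), and the sources used here state neither annotation release, strand setting nor treatment of multi-mapping reads. The groups came from the sample titles.

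Counts were filtered by edgeR's filterByExpr (15984 of 29695 genes kept, at least 99.47% of each library's reads) and scaled by TMM. Differences were tested by quasi-likelihood F tests in edgeR 4.0.16 (R 4.3.3, with limma 3.58.1), fitting 1 mean for each group to the 16 libraries jointly, with Benjamini-Hochberg adjustment over all genes tested; a gene was called at an adjusted p under 0.05. The SE was taken as the absolute log2 fold change over the root of its F value. The fit was tested on simulated data with known changes. Those data gave every gene the same relative spread and held no library that stood apart, so the test does not cover these features here. Marker levels are the mean log2(CPM + 0.5) of the tested genes of a list. Relations between genes and lists (80) and between genes (28) were tested with 100000 permutations. These shuffled all 16 libraries without regard to group, so their p-values do not separate differences between groups from relations within groups. Permutation tests of Cybb relative to macrophage markers were exact, and all tests were two-sided. Exon lengths, chromosomes and overlaps came from the GRCm38 annotation, a different build from the authors', so gene coordinates are not given. No 2 libraries of a group were alike (lowest chi-square per degree of freedom 22.4 over 24 pairs).

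The named genes were all 9 members with every library, the called genes of each pathway list (up to 4 per list and comparison) or, where none was called, the 2 with the smallest p, and the 3 genes most correlated with each member; for the interaction and the average effect the uncalled genes are printed in part. A gene that the rule names is not reported here. Values per library or their ranges for Noxo1, Ncf4, Gpx8, Maoa, Agtr1a, Gch1, Atp7a, Duox1 and Agtr2 fall outside this rule and were chosen after they were seen. The members and lists were chosen with earlier results of these data known. Alternatives were RLE scaling, no filter, DESeq2 1.42.0, a replicate block, limma voom with quality weights, only the groups compared, a filter of 1 CPM in at least 4 libraries, a fit that dropped both libraries standing apart (KO saline 1 and KO AngII 4), and each library left out in turn.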

Additional observations from a re-analysis of the deposited data

Results flagged for a closer look

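Of 32 sets of 4 libraries (8 genes in 4 groups), 2 held a library far from the other 3 by Dixon's criterion for 4 samples (0.829), and chance flags about 1 set in 20. Hmox1 was at 15.3 CPM in WT saline replicate 2, against 8.85 to 9.32 CPM in the other WT saline libraries. That library also had the lowest Nox4, Sod3, Cyba and Nqo1, the highest Gpx3 (984 CPM) and the lowest smooth muscle marker sum (8009 CPM against 20223 to 21729 CPM) of its group. Gpx3 was at 814 CPM in the library labelled KO saline replicate 1, against 398 to 439 CPM in the other KO saline libraries. Its brown adipocyte markers summed to 8699 CPM, against 1889 to 3208 CPM in the others, and it is the library whose Vamp8 level goes against its label. The part of these markers in either value was not tested.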

How the results depend on the processing

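No value of a member reversed to a call in the other direction under any setting run. The limits are 4 libraries per group, 1 table whose structure differs by genotype, and 2 libraries that stand apart; effects under about 2-fold in Nox4, Hmox1 or Gpx3 were within their error, and Nox1 was below the depth.

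The number of genes called depended on the tool. For AngII in KO (8 genes) DESeq2 called 628, limma voom with quality weights 561, the replicate block 14 and the fit of only the groups compared 4. For AngII in WT (71) DESeq2 called 272, limma voom 254, the replicate block 42 and the fit that dropped both libraries that stand apart (KO saline 1 and KO AngII 4) 128. For KO against WT under AngII (324) the counts were 1276 with DESeq2, 580 with limma voom, 166 with the replicate block and 102 with only the groups compared. For KO against WT under saline (481) they were 1284, 3197 and, with only the groups compared, 203. For the interaction (3) DESeq2 called 68 and limma voom 173, and for the average AngII effect (166) they called 584 and 549. Of the 8 members 0 were called in edgeR's fits of all 16 libraries, 1 with DESeq2 and 1 with limma voom for KO against WT under AngII, and 2 with limma voom for KO against WT under saline. Without KO saline replicate 1 alone, 197 genes and 2 pathway genes were called for KO against WT under saline. Of the pathway genes, DESeq2 called 4 for AngII in KO, 3 for AngII in WT, 10 for KO against WT under AngII (4 in edgeR), 9 under saline (4 in edgeR) and 2 for the average AngII effect. Limma voom called 1, 2, 7, 33 and 2 in these comparisons and 1 for the interaction. Only the groups compared left 0 in both comparisons of KO with WT, the replicate block left 2 under AngII, and without both libraries that stand apart 1 was called for the average AngII effect. The causes were not tested.

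With 1 library left out, genes called ranged from 6 to 32 for AngII in KO, 3 (without WT saline replicate 1 or 4) to 115 (without KO AngII replicate 4) for AngII in WT, 100 (without WT AngII replicate 3) to 845 (without KO AngII replicate 3) for KO against WT under AngII, and 105 (without WT saline replicate 1) to 1744 (without WT saline replicate 2) for KO against WT under saline. They ranged from 2 to 12 for the interaction and 42 (without WT AngII replicate 4) to 252 for the average AngII effect. Members called ranged from 0 to 1 in both comparisons of KO with WT and stayed at 0 in the other 4. Pathway genes called ranged from 0 to 1 for AngII in WT, 0 to 6 for KO against WT under AngII, 0 to 20 under saline and 0 to 2 for the average AngII effect, and stayed at 0 in the other 2. Cybb relative to macrophage markers ranged from 0.33 to 0.53 for AngII in KO, -0.030 to 0.23 for AngII in WT, 0.28 to 0.50 for KO against WT under AngII and -0.086 to 0.17 under saline.

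The labels link samples across groups only by a replicate number. Correlations of same-numbered deviations ran from -0.46 to 0.47 over 4 comparisons and were not all above 0.1. Such correlations over all tested genes cannot show whether equal numbers share a litter or day, so pairing is unknown and was not assumed. The replicate block moved no member across the threshold.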
